A study of Mus musculus with 24 samples.

Results

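The genes described here encode 4 secreted factors of the cellular stress response, Fgf21, Gdf15, Adm2 and Stc2, and 6 proteins of the receptors for FGF21 and adrenomedullin 2, Klb, Fgfr1, Calcrl, Ramp1, Ramp2 and Ramp3. These 10 genes were chosen by symbol out of 38924 genes in the deposited tables, and all 10 were found. The study asked which mRNAs sit on the ribosomes of cholinergic neurons in adult mice that model Charcot-Marie-Tooth disease type 2D, an inherited neuropathy caused by mutations of glycyl-tRNA synthetase (Gars). It used RiboTag, in which Cre recombinase switches the ribosomal protein Rpl22 to a form with an HA tag, so that ribosomes of the Cre-expressing cells can be pulled down from spinal cord with an anti-HA antibody. There were 4 groups of 6 mice, each mouse giving 1 library, all 8 weeks old, on the strain background B6.CgxB6.129 and heterozygous for the tagged Rpl22 allele (Rpl+/-). The mutant group with Cre was Rpl+/-;Chat+/-;C201R+/- and is called C201R/+ with Cre. The wild-type group with Cre was Rpl+/-;Chat+/-;C201R+/+. The other 2 groups, Rpl+/-;Chat+/+;C201R+/- and Rpl+/-;Chat+/+;C201R+/+, carried no Cre, and their pulldowns measure the background of RNA that comes down without tagged ribosomes. Cre was driven from Chat, which is active in all cholinergic cells of the cord and not in motor neurons alone. Mice are named by their numbers, for example 14003-1.

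FGF21 is a hormone best known from liver, where fasting and amino acid shortage raise it. It needs a receptor of an FGF receptor tyrosine kinase, most often FGFR1, together with the membrane protein beta-klotho, encoded by Klb. GDF15 is a distant relative of the TGF-beta family that reports cell stress and acts through a receptor in the hindbrain. Adrenomedullin 2, also called intermedin, belongs to the calcitonin peptide family, and its receptor is built from the calcitonin receptor-like receptor, encoded by Calcrl, and a RAMP protein that sets which peptide binds. Stanniocalcin 2 is a secreted glycoprotein that inhibits the protease PAPP-A, which frees insulin-like growth factors from their binding proteins. All 4 are known to respond to ATF4, a stress-induced transcription factor that binds composite C/EBP-ATF response elements. The messages of a hormone and its receptor are usually made in different cells, so that a pulldown from 1 cell type need not hold both.

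The start regions of the secreted factors are printed first because Fgf21, Adm2 and Gdf15 were called between the genotypes and Stc2 is the other secreted factor, and that of Calcrl because it holds the same motif. Each window runs from 250 bases before to 50 bases after a RefSeq start site on the build GRCm38.p6, read 5′ to 3′ on the strand of the gene. Capitals mark matches to TGATGNAA, the core letters of the C/EBP-ATF response element, searched on both strands.
Fgf21 (chr7:45615441-45615740, minus strand): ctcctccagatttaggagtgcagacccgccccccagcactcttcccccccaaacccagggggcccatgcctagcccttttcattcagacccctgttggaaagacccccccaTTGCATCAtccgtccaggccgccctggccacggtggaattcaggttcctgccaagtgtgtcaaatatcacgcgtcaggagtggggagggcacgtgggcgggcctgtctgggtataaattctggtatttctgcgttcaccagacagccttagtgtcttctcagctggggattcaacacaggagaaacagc
Adm2 (chr15:89322470-89322769, plus strand): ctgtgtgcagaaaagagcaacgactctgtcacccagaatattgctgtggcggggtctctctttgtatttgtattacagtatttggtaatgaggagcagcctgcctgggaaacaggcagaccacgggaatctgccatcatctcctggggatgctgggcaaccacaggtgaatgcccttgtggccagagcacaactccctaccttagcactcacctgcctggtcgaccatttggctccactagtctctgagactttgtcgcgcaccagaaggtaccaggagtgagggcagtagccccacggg
Gdf15, start site with the higher coordinate (chr8:70632407-70632706, minus strand): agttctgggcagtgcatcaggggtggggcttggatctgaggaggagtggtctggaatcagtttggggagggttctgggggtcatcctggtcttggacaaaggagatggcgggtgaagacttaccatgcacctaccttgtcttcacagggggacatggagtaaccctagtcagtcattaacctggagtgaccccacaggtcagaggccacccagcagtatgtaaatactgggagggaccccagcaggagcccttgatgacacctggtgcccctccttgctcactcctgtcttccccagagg
Gdf15, start site with the lower coordinate (chr8:70632046-70632345, minus strand): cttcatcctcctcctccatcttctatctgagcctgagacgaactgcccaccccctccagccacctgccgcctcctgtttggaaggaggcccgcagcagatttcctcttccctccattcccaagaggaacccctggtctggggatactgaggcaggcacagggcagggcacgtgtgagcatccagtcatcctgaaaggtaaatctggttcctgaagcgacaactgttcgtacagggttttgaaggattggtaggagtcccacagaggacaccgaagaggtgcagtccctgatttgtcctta
Stc2 (chr11:31370012-31370311, minus strand): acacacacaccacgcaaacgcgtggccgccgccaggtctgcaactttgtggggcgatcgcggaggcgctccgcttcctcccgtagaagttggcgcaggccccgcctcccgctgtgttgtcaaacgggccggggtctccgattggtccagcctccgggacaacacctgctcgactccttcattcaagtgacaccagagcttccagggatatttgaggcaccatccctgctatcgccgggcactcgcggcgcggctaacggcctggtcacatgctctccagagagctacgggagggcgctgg
Calcrl (chr2:84425217-84425516, minus strand): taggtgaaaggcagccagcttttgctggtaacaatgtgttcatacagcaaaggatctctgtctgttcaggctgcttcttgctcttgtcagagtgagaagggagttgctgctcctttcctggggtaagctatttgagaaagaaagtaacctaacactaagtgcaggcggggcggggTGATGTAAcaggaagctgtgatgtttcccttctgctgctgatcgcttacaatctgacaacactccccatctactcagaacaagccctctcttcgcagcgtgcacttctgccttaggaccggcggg
The table of windows held 8 of the 10 genes, and Fgfr1 and Ramp2 were not matched. TGATGNAA was found in 2 of these 8 genes and in 3.97% of 32817 windows of the same length. In Fgf21 the letters were TTGCATCA on the gene strand, the motif on the other strand, with their first base at -139 from the start site. In Calcrl they were TGATGTAA on the gene strand with their first base at -75. TGACGTCA, the cAMP response element, lay in 1.79% of all windows and in 0 of the 8 genes. The windows of Adm2 and Stc2 and both windows of Gdf15 held neither. A match is only a match of letters.

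Library totals ran from 8.9 M to 28.29 M expected counts (M, the SI mega). The pulldowns carried the label of their cells: Chat, which encodes the acetylcholine-making enzyme, stood at 50.0 to 116.4 CPM in C201R/+ with Cre, 51.1 to 62.0 in wild type with Cre, and 0.871 to 8.91 in the 12 libraries without Cre. CPM are counts on the per-million scale of a library size adjusted by edgeR's TMM method over all 24 libraries. The summed CPM of 9 cholinergic markers was 881.3 to 1656.3 with Cre and 46.1 to 255.9 without. The C201R allele is a point mutation, so the Gars level does not check it. Gars was nevertheless higher in C201R/+ with Cre (161.2 ± 23.8 CPM against 92.6 ± 8.78, SD, n = 6 each, log2 change 0.80 ± 0.121 SE, adjusted p = 0.0020). Rpl22 was not called between genotypes with Cre (0.25 ± 0.17, edgeR adjusted p = 0.46). With Cre against no Cre it was higher in C201R/+ (0.73 ± 0.243, edgeR adjusted p = 0.016) and not called in wild type (0.41 ± 0.191, 0.075). Among libraries with Cre, C201R/+ mouse 14003-1 and wild-type mouse 14701-9 stood apart, with 15.76% and 17.11% mitochondrial counts against 1.24% to 6.45% in the other 10. Without Cre the mitochondrial share was far larger, 35.19% to 49.6% in C201R/+ and 42.05% to 55.54% in wild type. The part of this difference in the comparisons of Cre with no Cre was not tested. The noncoding gene Gm26924 took 8.01% to 43.26% of counts in C201R/+ with Cre, the most in 14003-1, and 7.45% to 30.8% in wild type with Cre, the most in 14701-9. C201R/+ mice 14003-4 (36.89%) and 14701-5 (32.9%) also lay above 14701-9. The group means were 25.4% ± 14.51 and 13.24% ± 8.78 (SD), and the part of this difference in the genotype results was not tested. Results that rest on mouse 14003-1 or 14701-9 are given with and without them. Libraries carried 2 series of library numbers, 7 in series 1 and 17 in series 2, and what the series are is not given in the sources used here.

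**Figure D1:**
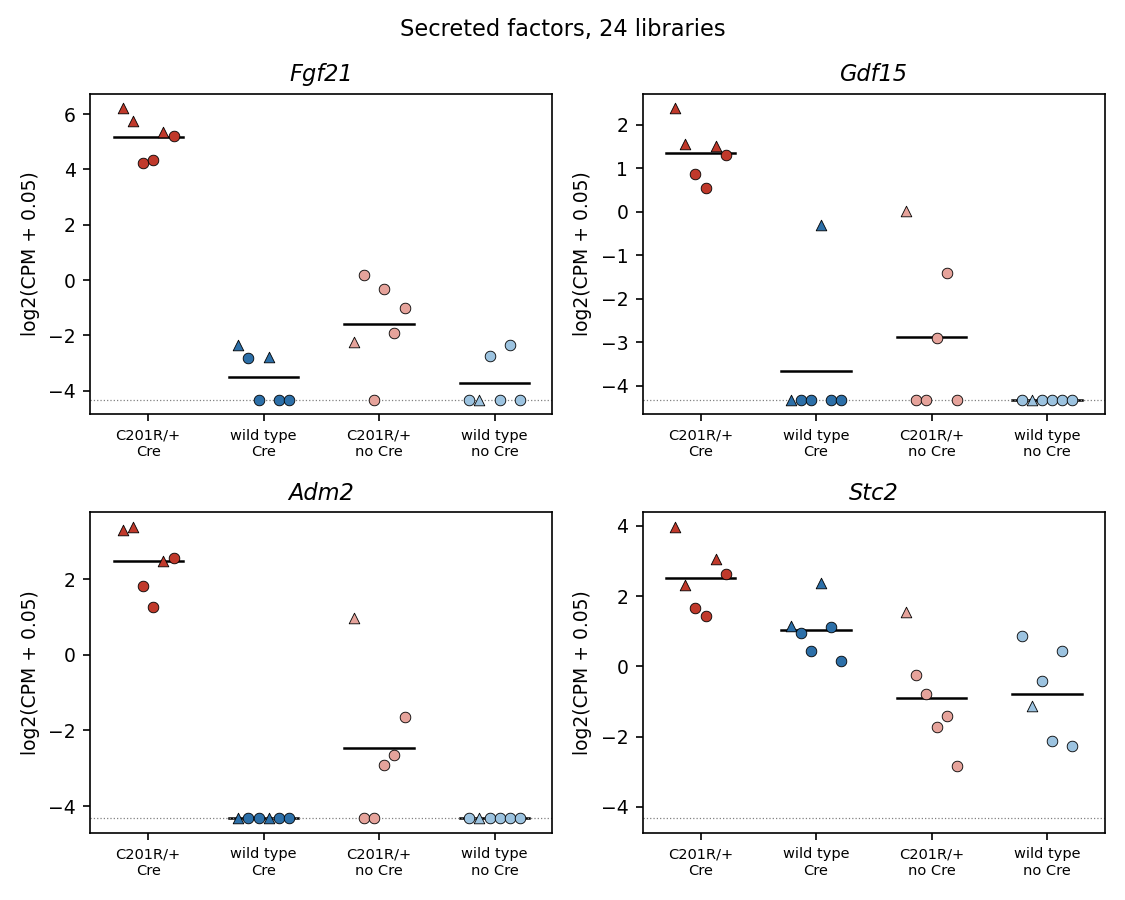
Level of Fgf21, Gdf15, Adm2 and Stc2 in each of 24 libraries as log2(CPM + 0.05), in 4 groups of 6 mice. Triangles are library series 1, circles series 2, bars the mean of the plotted values, and the dotted line marks a count of 0. All 6 C201R/+ libraries with Cre lie above all 6 wild-type libraries with Cre for Fgf21, Gdf15 and Adm2, and the groups overlap for Stc2.

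Among pulldowns with Cre, Fgf21, Adm2 and Gdf15 rose in C201R/+ and none of the tested receptor genes passed the test. Of the 10 genes, 8 passed the filter on low counts, and 3 of these were called higher and 0 lower in the edgeR quasi-likelihood test with Benjamini-Hochberg adjustment over 14634 genes (adjusted p under 0.05). Of all genes tested, 2.29% were higher and 1.82% lower, 4.11% in all. The wild-type libraries held 10, 0 and 8 counts of Fgf21, Adm2 and Gdf15, so these genes passed that filter only through the C201R/+ libraries and their count is no support on its own. In bulk RNA, fewer cells of a type and less RNA per cell cannot be told apart.

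Fgf21 had counts in every C201R/+ library with Cre, 402 at the lowest, 724.5 at the median and 920 at the highest. In wild type with Cre it had 5, 4 and 1 counts in mice 14002-6, 14004-3 and 14701-9 and 0 in the other 3. On the CPM scale this was 18.9 at the lowest, 38.7 at the median and 74.2 at the highest C201R/+ library, and 0.145 at the highest wild-type library. The groups did not overlap, and the lowest C201R/+ mouse, 14004-2, stood far above the highest wild-type mouse. The log2 change was 9.19 ± 0.458 (SE), with an adjusted p of 2.2e-08 in edgeR, and Fgf21 held rank 2 of all genes by p. Within library series 1 the mean CPM was 56.1 in 3 C201R/+ mice and 0.12 in 2 wild-type mice, and within series 2 it was 25.2 in 3 and 0.0228 in 4.

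Adm2 gave 53 to 181 counts in the 6 C201R/+ libraries with Cre (median 108.5) and 0 in all 6 wild-type libraries with Cre. The C201R/+ levels were 2.37 CPM at the lowest, 5.73 at the median and 10.5 at the highest. A count of 0 over the wild-type group allows up to 0.0159 CPM (3 counts over 188.2 M scaled counts), for counting error only. Adm2 was called in edgeR (adjusted p = 4.4e-05), and its fitted log2 change against a group at 0 depends on the prior count and is not read as a size. No wild-type library, with or without Cre, held a count of this gene, so its message was detected in mutant mice alone at this depth.

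Gdf15 gave 28 counts at the lowest, 50.5 at the median and 59 at the highest C201R/+ library with Cre. In wild type with Cre it had 8 counts in mouse 14701-9, which also stood apart in its composition, and 0 in the other 5 mice. The levels were 1.40 to 5.17 CPM in C201R/+ and 0.762 in that wild-type mouse, so that the groups did not overlap. With scaled library sizes, the 293 summed counts against 8 made a 52.1-fold ratio (95% counting interval 26.1 to 121.9). The fitted log2 change was 5.42 ± 1.02 (edgeR adjusted p = 0.0087). Without mice 14003-1 and 14701-9 it was 8.98 against a group then at 0, and with the mouse number prefix as a block in place of the series it was 5.55 and not called (adjusted p = 0.13).

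Stc2 differed from the other secreted factors in that wild-type cholinergic pulldowns already held it. It gave 34 to 83 counts in wild type with Cre (median 64.5) and 85 to 153 in C201R/+ with Cre (median 97.5). On the CPM scale wild type stood at 1.05, 2.02 and 5.14 and C201R/+ at 2.65, 5.53 and 15.7 (lowest, median, highest). On that scale the groups overlapped through wild-type mouse 14701-9, the highest of its group, which lay above 3 C201R/+ mice. In the deposited TPM, which are per length, they overlapped through other wild-type mice, 14002-6 (2.57) and 14702-3 (1.57). The lowest C201R/+ mouse was at 1.49 TPM and 14701-9 at 1.37. The log2 change was 1.35 ± 0.369 with an edgeR adjusted p of 0.052, so it was not called. It was called without mice 14003-1 and 14701-9 (1.41, adjusted p = 0.0092), in series 2 alone (1.30, adjusted p = 0.032), with no filter on low counts (1.32, adjusted p = 0.040) and in DESeq2 (1.37, adjusted p = 0.0052), and when leaving out C201R/+ mouse 14003-4 (adjusted p = 0.047) or wild-type mouse 14701-9 (0.045). It was not called with the prefix block (adjusted p = 0.46), library totals alone (0.34), edgeR's RLE scaling (0.052) or no series term (0.11). Of the 12 fits that left out 1 mouse, 10 did not call it, with adjusted p up to 0.21.

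The receptor genes with enough counts were present in both genotypes and did not pass the test. Fgfr1, the tyrosine kinase through which FGF21 can signal, stood at 23.3, 52.3 and 56.9 CPM in C201R/+ with Cre and at 52.9, 59.9 and 65.4 in wild type with Cre (lowest, median, highest). The low C201R/+ value belonged to mouse 14003-1, the next lowest being 48.6, and the groups overlapped. Its log2 change was -0.28 ± 0.167 (edgeR adjusted p = 0.40). Ramp2, the RAMP that turns the calcitonin receptor-like receptor into an adrenomedullin receptor, stood at 3.13, 4.80 and 7.68 CPM in C201R/+ and at 6.45, 7.34 and 8.06 in wild type. A C201R/+ mouse, 14701-5, lay within the wild-type range and the other 5 below it. The log2 change of -0.60 ± 0.22 was not called (edgeR adjusted p = 0.14). It was called lower without mice 14003-1 and 14701-9 (adjusted p = 0.047), in series 2 alone (adjusted p = 0.023) and in DESeq2 (adjusted p = 0.036). It was not called with edgeR's RLE scaling (0.15), library totals alone (0.42), no filter (0.37), no series term (0.25) or the prefix block (0.55). Nor was it called in any of the 12 fits that left out 1 mouse (adjusted p from 0.08 to 0.40). Expected counts were not whole for Fgfr1 in all libraries but those of mice 14004-2, 14004-3 and 14702-9, and for Ramp2 in some libraries with Cre and none without. RSEM gives such counts where it divides reads between genes, so these values are less certain.

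Calcrl and Ramp1 were low and overlapped between genotypes. Calcrl, the receptor body shared by the adrenomedullin and CGRP receptors, had 0 to 56 counts in C201R/+ with Cre and 15 to 53 in wild type with Cre, and its log2 change was 0.31 ± 0.729 (edgeR adjusted p = 0.87). Ramp1, which makes the CGRP receptor with Calcrl, stood at 2.03, 4.65 and 6.20 CPM in C201R/+ and at 1.92, 3.21 and 10.6 in wild type, the last in mouse 14701-9. Its log2 change was 0.15 ± 0.375 (adjusted p = 0.88). Without mice 14003-1 and 14701-9 the change was 0.71 for Ramp1 (edgeR adjusted p = 0.080) and 0.85 for Calcrl (0.42), and in series 2 alone it was 0.66 (0.18) and 1.32 (0.064). The SE of Calcrl leaves its change between genotypes poorly bounded at this depth.

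Klb and Ramp3 did not pass the filter on low counts. Klb, the beta-klotho gene without which FGF21 binds its receptor poorly, had 33 counts over the 6 C201R/+ libraries with Cre and 11 over the 6 wild-type ones, 14 of the 33 in mouse 14703-4. The levels were 0 to 0.608 CPM and 0 to 0.190 CPM and the groups overlapped. The ratio of summed counts was 4.27 (counting interval 2.11 to 9.37), and an exact two-sided permutation test of log2(CPM + 0.5) over mice gave p = 0.11, or p = 0.017 without mouse 14003-1, which had no Klb count. Ramp3, the third RAMP and a partner of Calcrl in an adrenomedullin receptor, had 30 counts, all in C201R/+ mice 14003-4, 14004-2 and 14004-5, against 13 in wild type (exact permutation p = 0.23). The counting intervals do not cover the spread between mice. These are 2 of 15 permutation tests on genes that did not pass a filter, with no adjustment, and the smallest p that 6 against 6 can give is 0.00216.

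**Figure D2:**
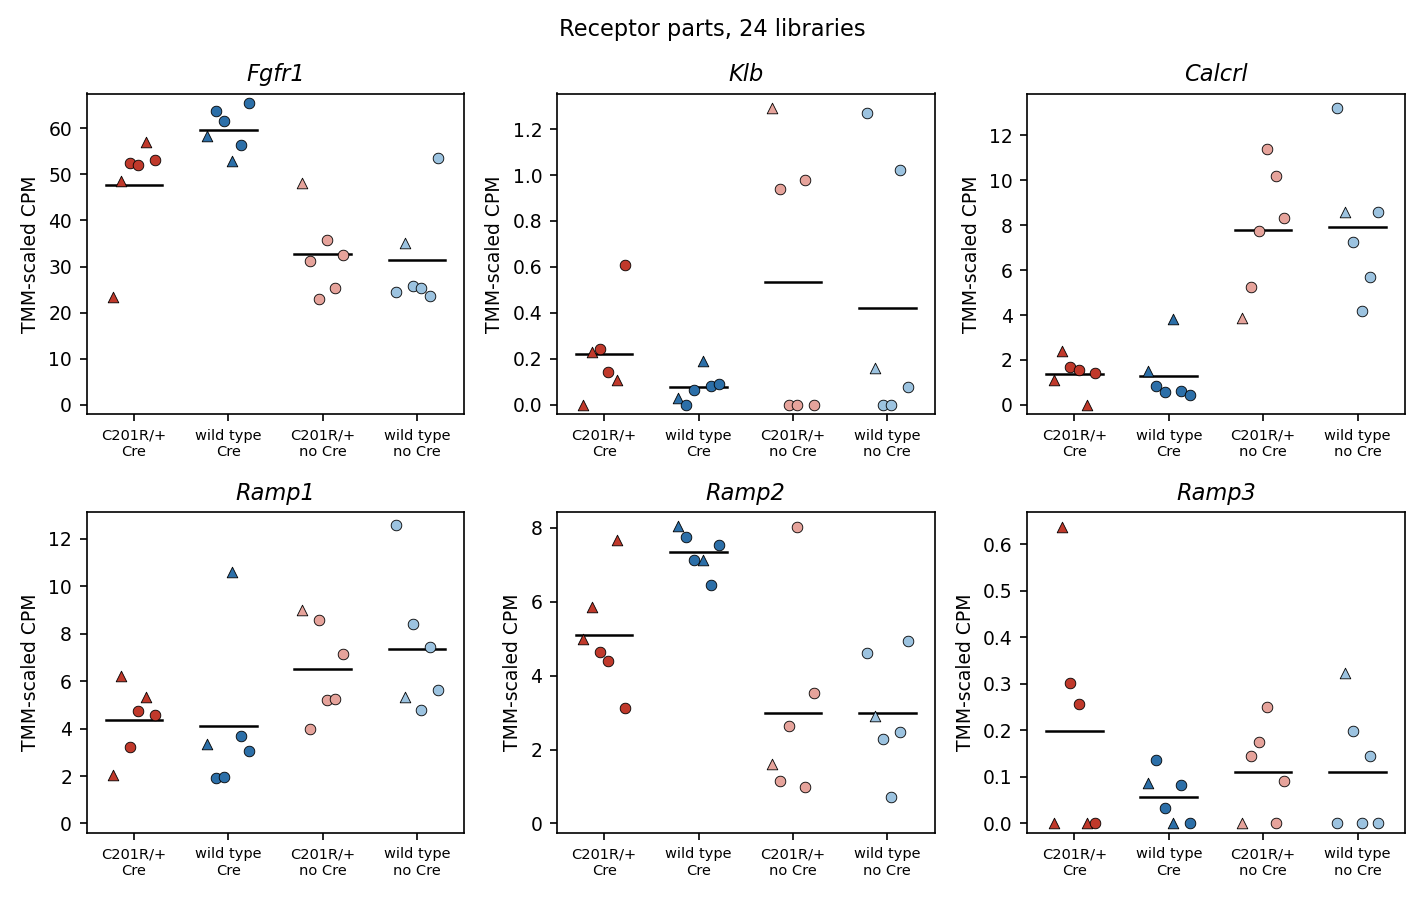
TMM-scaled CPM of Fgfr1, Klb, Calcrl, Ramp1, Ramp2 and Ramp3 in each of 24 libraries (axes on a linear scale, each gene with its own), with triangles for series 1, circles for series 2 and bars for the mean. The genotypes overlap for all 6 genes, Calcrl is lower with Cre than without in both genotypes, and Klb and Ramp3 stay under 1.3 CPM in all libraries.

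Levels can be compared between genes only per length, for which the deposited TPM were used. In C201R/+ with Cre, Fgf21 was the most abundant of the 10 messages at 71.4 ± 11.5 TPM (SD, n = 6), above Fgfr1 at 32.2 ± 16.7 in all 6 libraries. Ramp2 followed at 13.7 ± 7.02 TPM and Adm2 at 9.72 ± 2.75, and the order of these neighbours changed between libraries, Ramp2 being above Adm2 in 3 of 6. Ramp1 (3.64 ± 2.29 TPM), Gdf15 (3.13 ± 0.563), Stc2 (2.33 ± 0.601) and Calcrl (1.33 ± 1.22) each lay within the spread of the next. Ramp3 (0.348 ± 0.382 TPM) and Klb (0.128 ± 0.118) were the lowest. The secreted factors thus stood in the order Fgf21, Adm2, Gdf15, Stc2, of which the last 2 did not differ beyond their spread.

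In wild type with Cre the order was headed by receptor genes. Fgfr1 stood at 51.4 ± 16.9 TPM, Ramp2 at 27.7 ± 8.27, Ramp1 at 3.62 ± 1.18, Calcrl at 1.73 ± 1.68 and Stc2 at 1.42 ± 0.641. Fgf21 (0.153 ± 0.203 TPM), Ramp3 (0.142 ± 0.137), Gdf15 (0.0933 ± 0.229) and Klb (0.0450 ± 0.0288) did not differ beyond their spread, and Adm2 was at 0. Stc2 was therefore the only secreted factor of the 4 with counts in all 6 wild-type libraries with Cre. The mean TPM of Fgf21 was 2.22 times that of Fgfr1 in C201R/+ with Cre and 0.00298 times that in wild type with Cre.

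**Figure D3:**
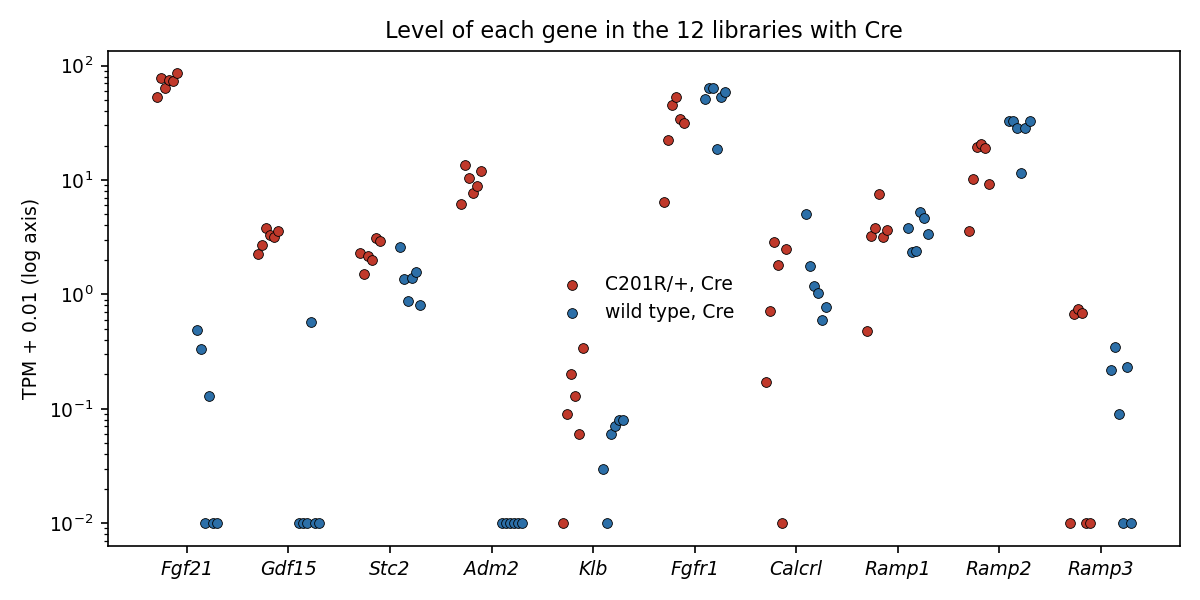
Deposited TPM (plus 0.01, log axis) of the 10 genes in the 12 libraries with Cre, 6 C201R/+ in red and 6 wild type in blue. Fgf21 is the highest of the 10 in C201R/+, at 52.9 to 85.7 TPM, and below 0.5 TPM in wild type, while Fgfr1 and Ramp2 lead in wild type.

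How much the secreted factors varied between mutant mice depended on the scale. On TMM-scaled CPM the highest C201R/+ mouse with Cre held 3.93 times the Fgf21 of the lowest, and the coefficient of variation was 51.6%. Against the library total, with no further scaling, this became 1.60 times and 19.3%, and in TPM 1.62 times and 16.0%. Gdf15 went from 48.2% on TMM-scaled CPM to 11.1% against the library total, Stc2 from 70.9% to 29.4% and Adm2 from 52.4% to 33.3%. The TMM-scaled size of mouse 14003-1 was 5.419 M for a total of 12.11 M, and that of mouse 14004-5 was 35.062 M for 20.98 M. Mouse 14003-1 was the highest on TMM-scaled CPM for Fgf21, Gdf15 and Stc2 and the lowest in TPM for Fgf21, Gdf15 and Adm2, so for these genes the order of the mutant mice was not the same across scales, whereas mouse 14003-4 was the highest for Adm2 on all 3. As shares of the summed TPM of the 4 messages, Fgf21 stood at 79.8% to 85.2%, Adm2 at 8.78% to 14%, Gdf15 at 2.82% to 4.69% and Stc2 at 1.55% to 3.63%.

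**Figure D4:**
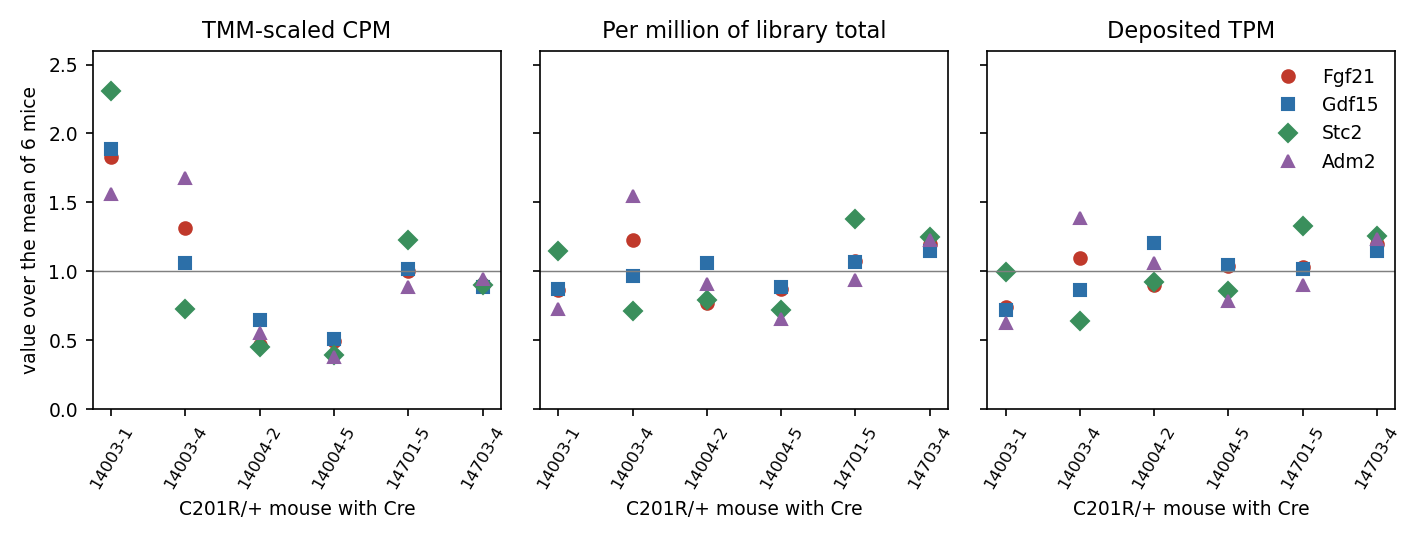
Level of Fgf21, Gdf15, Stc2 and Adm2 in each of the 6 C201R/+ mice with Cre, divided by the mean of the 6, on TMM-scaled CPM, against the library total and in deposited TPM. Mouse 14003-1 is the highest for Fgf21, Gdf15 and Stc2 on the first scale and the lowest for Fgf21, Gdf15 and Adm2 on the third.

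The pulldowns without Cre ask whether the mutation alters the background of the cord. Of the 10 genes 4 passed the filter, Fgfr1, Calcrl, Ramp1 and Ramp2, and 0 were called, as were 0 of 14400 genes in edgeR (0%, with 455 at an unadjusted p under 0.05, and 2 called in DESeq2). Their log2 changes were 0.04 ± 0.216, -0.06 ± 0.347, -0.20 ± 0.352 and -0.04 ± 0.578, each with an edgeR adjusted p of 1.0, and each changed sign in at least 1 fit that left out a mouse.

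Traces of Fgf21, Adm2 and Gdf15 came down without Cre, with more counts in mutant than in wild-type mice. Fgf21 had 0, 1, 2, 5, 9 and 15 counts in the 6 C201R/+ mice without Cre and 1 count in each of 2 wild-type mice, with 0 in the other 4. The levels were 0.444 ± 0.408 CPM and 0.0408 ± 0.0649 (SD, n = 6 each) and overlapped, and the ratio of summed counts was 17.5 (counting interval 4.46 to 150.6). The exact permutation p was 0.019, with 5 of 6 mutant mice above 0. It was the smallest p of the 15 permutation tests, for which no adjustment was made. Adm2 had 17 counts in 4 of 6 C201R/+ mice and 0 in all 6 wild-type mice (exact permutation p = 0.061), and Gdf15 had 10 counts in 3 mice against 0 (p = 0.18). These summed levels were 6.19 and 3.64 times what 3 counts over the wild-type group would give. They are no lower bounds, as they leave out the counting error and spread of the mutant mice. Mouse 14003-2 gave 12 of the 17 Adm2 counts and 6 of the 10 Gdf15 counts but 1 of the 32 Fgf21 counts. Without mouse 14003-3 or 14004-7, which had no Adm2 count, the permutation p for Adm2 was 0.015. For Stc2 the mutant mean was 0.814 ± 1.05 CPM and the wild-type mean 0.751 ± 0.654 (exact permutation p = 0.93). Klb and Ramp3 gave exact permutation p of 0.94 and 1.0.

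These traces can be set beside the background of Chat. In C201R/+ the mean CPM without Cre was 1.09% of that with Cre for Fgf21, 2.58% for Chat, 6.37% for Adm2, 8.35% for Gdf15 and 12% for Stc2. For Adm2 the libraries without Cre ranged from 0% to 30.8% and for Gdf15 from 0% to 35.2%, the upper values in mouse 14003-2. In wild type the figure for Chat was 7.42%. Mean Chat without Cre was 1.90 ± 0.933 CPM in C201R/+ and 4.29 ± 2.6 in wild type (SD). Its log2 change there was -1.20 ± 0.523 and not called (edgeR unadjusted p = 0.032). The 6 tested cholinergic markers had a median log2 change of -1.05 without Cre (all genes -0.04), with 0 called. How much of the trace came from cholinergic cells was not tested.

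The comparison of pulldowns with and without Cre asks which messages are enriched on ribosomes of cholinergic cells. In C201R/+, 8 of the 10 genes were tested, 5 were higher with Cre and 1 lower, where 30.5% of 14335 genes were higher and 26.3% lower. All 4 secreted factors were higher, but they had 10 to 39 summed counts each without Cre and entered the test through the libraries with Cre, so nothing is read from their count against those shares. Fgf21 was higher by 5.88 ± 0.492 on the log2 scale (edgeR adjusted p = 5.7e-08), Adm2 by 4.01 ± 0.666 (6.9e-05), Gdf15 by 3.5 ± 0.785 (0.0011) and Stc2 by 2.81 ± 0.538 (2.7e-04). The groups with and without Cre did not overlap in CPM for Fgf21, Adm2 and Gdf15, and for Stc2 they overlapped through mouse 14003-2 at 2.89 CPM. Chat itself was higher by 5.09 ± 0.339 (edgeR adjusted p = 6.2e-09). In wild type Fgf21, Gdf15 and Adm2 did not pass the filter with or without Cre, and Stc2 was not called (1.2 ± 0.699, edgeR adjusted p = 0.15). With library totals alone Stc2 in wild type was called higher (2.2, adjusted p = 0.0047).

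Of the receptor genes, Fgfr1 was higher and Calcrl lower with Cre. In wild type 5 of the 10 genes were tested, with 2 higher and 2 lower, where 27.7% of 14264 genes were higher and 32.8% lower. Fgfr1 was higher by 0.77 ± 0.192 (edgeR adjusted p = 0.0026) and Ramp2 by 1.13 ± 0.384 (0.018), while Calcrl changed by -3.39 ± 0.466 (1.4e-05) and Ramp1 by -1.35 ± 0.442 (0.015). In C201R/+ Fgfr1 changed by 0.56 ± 0.23 (edgeR adjusted p = 0.045) and Calcrl by -2.23 ± 0.636 (0.0064), while Ramp1 at -0.63 ± 0.363 (0.15, or 0.043 and lower in DESeq2) and Ramp2 at 0.71 ± 0.562 (0.29) were not called. For Ramp2 the wild-type groups did not overlap in CPM or TPM, at 6.45 to 8.06 CPM with Cre and 0.709 to 4.93 without. For Calcrl the groups with and without Cre did not overlap in CPM in either genotype, but they overlapped in TPM. The wild-type and the mutant comparisons each have their own controls, and the difference between them was tested as the interaction below.

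**Figure D5:**
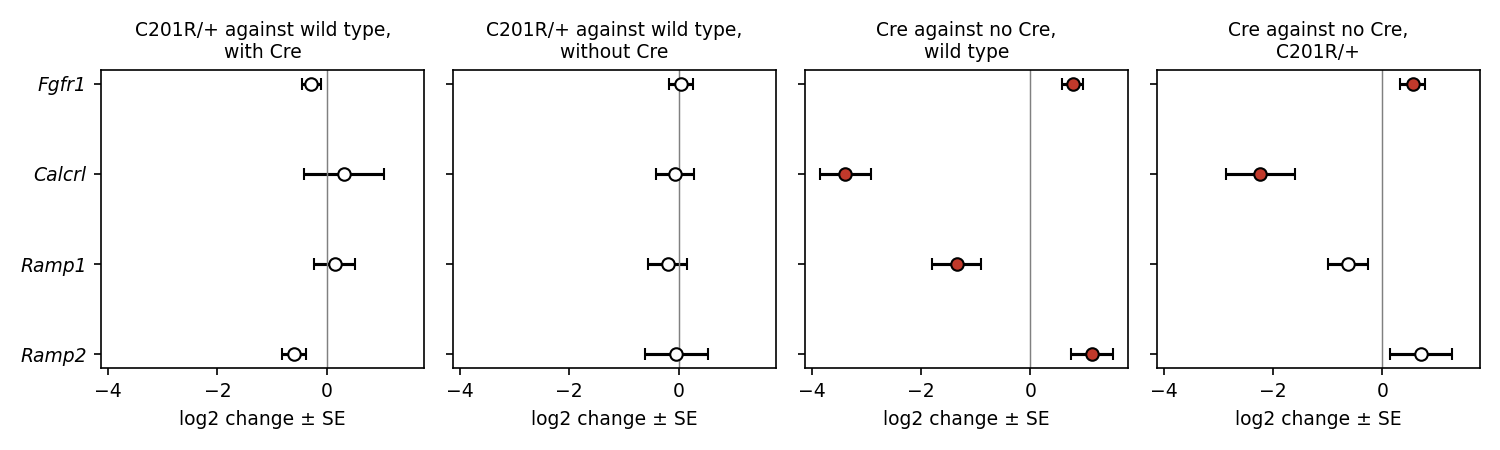
Log2 change with its SE in the edgeR fit for the 4 receptor genes tested in every comparison, with red points for changes called at an adjusted p under 0.05 and open points for the rest. None is called between genotypes, and Calcrl lies at -3.39 in wild type and -2.23 in C201R/+ for Cre against no Cre.

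Some of these receptor calls depended on scaling. With library totals alone the median log2 change of all genes for Cre against no Cre moved from -0.10 to 0.84 in wild type and from 0.06 to 0.64 in C201R/+, and the share of called genes that were higher moved from 45.8% to 73.8% and from 53.7% to 71.2%. Ramp1 in wild type was then at -0.40 (adjusted p = 0.38), and in C201R/+ at 0.01, with the opposite sign. Ramp1 in wild type also lost its call with the prefix block (adjusted p = 0.082) and without wild-type mouse 14004-3 or 14004-6 (adjusted p = 0.054 and 0.053). Ramp2 in wild type lost it with the block (0.15). Fgfr1 in C201R/+ lost it with RLE scaling (0.17), in DESeq2 (0.21), with the block (0.34) and in 9 of 12 fits that left out 1 mouse, with adjusted p from 0.059 to 0.17, all but those without 14003-1, 14003-2 or 14004-8. Ramp2 in C201R/+ was called higher without mouse 14004-8 (1.27, adjusted p = 0.037). The calls of Calcrl in both genotypes and of Fgfr1 in wild type held in all alternatives run.

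Calcrl is known as a gene of endothelial cells, and its level with and without Cre moved with markers of several non-neuronal cell types. The summed CPM of 12 endothelial markers was 25.2 to 72.7 in the 12 libraries with Cre and 133.7 to 241.2 in the 12 without, none of the 12 genes being at 0 throughout a group. With Cre against no Cre, 11 of the 12 were lower in wild type, where 32.8% of all genes were, and 11 were lower and 1 higher in C201R/+, where 26.3% and 30.5% were. The same order held for the summed CPM of mural markers (26.8 to 80.8 with Cre, 172.2 to 492.3 without), astrocyte markers (683.5 to 1062.2, 2300.1 to 3071.0), oligodendrocyte markers (517.0 to 1126.5, 4970.4 to 8891.2) and microglial markers (12.3 to 34.4, 45.7 to 126.0). It also held for meningeal and fibroblast markers (28.1 to 135.3, 192.1 to 504.6). Blood markers (23.8 to 496.9, 103.9 to 1697.7) and sensory neuron markers (9.45 to 28.0, 4.26 to 51.3) overlapped, though all 7 blood markers were called lower with Cre in both genotypes. Between genotypes with Cre 0 of the 12 endothelial markers were called. The part of these cell types in the level of Calcrl was not tested. In CPM, mean Calcrl without Cre was 571.9% of that with Cre in C201R/+ and 605.3% in wild type, while for Fgfr1 the figures were 68.5% and 52.6%. In TPM, mean Calcrl with Cre was 0.253 times that without in C201R/+ and 0.459 times in wild type. For Fgfr1 these ratios were 2.26 and 4.49, so the sizes depended on the scale.

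Whether the genotype effect itself differed with Cre was tested as an interaction over all 24 libraries. Of the 10 genes 9 were tested and 0 were called, where 0.130% of 16109 genes (21, with 1462 at an unadjusted p under 0.05) were called. The interaction for Fgf21 was 5.35 ± 2.00 (edgeR adjusted p = 0.42), for Stc2 1.66 ± 0.838 (0.56) and for Gdf15 0.66 ± 1.2 (0.91). Gdf15 had 0 counts in wild type without Cre, so its value depends on the prior count and is not read as a size. Across the alternatives run it went from -0.12 to 4.41. For Adm2 the interaction was 4.12 with an edgeR adjusted p of 1.0 and no usable SE, as both wild-type groups were at 0. DESeq2 called Fgf21 (adjusted p = 0.00068) and Adm2 (0.032), so the 2 tools differ for these genes of few wild-type counts.

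Genes of the same pathways were compared between genotypes with Cre. Of all genes tested there, 2.29% were higher and 1.82% lower, 4.11% in all. At such shares a short list can hold 0 calls, so a list without a call is not read as unchanged. Of 10 tested FGF ligand genes 0 were called (median log2 change -0.32, all genes -0.01). Fgf1, the ligand of the list with the highest TPM, was at 915.9 ± 404.9 CPM against 1457.7 ± 473.8 (log2 change -0.56 ± 0.219, edgeR adjusted p = 0.18), and Fgf11, an intracellular FGF, was at -0.20 ± 0.189 (0.63). Of 6 tested other FGF receptor, co-receptor and adaptor genes 0 were called (median 0.04), Fgfr2 standing at -0.30 ± 0.327 (adjusted p = 0.69) and the adaptor Frs2 at -0.55 ± 0.24 (0.23). Of 11 tested feedback and target genes of FGF and ERK signalling, 1 was lower, the transcription factor Etv1 (-0.80 ± 0.193, edgeR adjusted p = 0.034), at 11.8 ± 5.96 CPM in C201R/+ and 22.2 ± 5.77 in wild type (median of the list -0.12). Without Cre Etv1 stood at 35.4 ± 11.6 and 39.6 ± 6.52 CPM. It was lower with Cre in C201R/+ (-1.29 ± 0.249, edgeR adjusted p = 2.9e-04) and in wild type (-0.95 ± 0.171, 1.9e-04).

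For GDF15, the receptor gene Gfral had 0 counts over the mutant and 4 over the wild-type libraries that carried Cre. Its co-receptor Ret was abundant in both, at 147.5 ± 48.2 and 206.3 ± 51.0 CPM (log2 change -0.41 ± 0.202, edgeR adjusted p = 0.29), and Gfra1, which pairs with Ret for GDNF, was at -0.69 ± 0.227 (0.11). None of the 6 tested genes of this list was called (median -0.36), where 4.11% of all genes were. Of 11 tested genes of the stanniocalcin and IGF binding axis 0 were called (median 0.20), with Igfbp5 at 0.38 ± 0.194 (edgeR adjusted p = 0.32) and Igf2 at 0.29 ± 0.429 (0.77).

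The calcitonin peptide family moved in both directions. While Adm2 rose, Calca and Calcb, which encode the 2 forms of the neuropeptide CGRP, were lower in C201R/+ with Cre. They were 2 of 4 tested genes of a list that does not hold Adm2 (median -0.70, all genes -0.01), where 1.82% of all genes were lower. Calca stood at 100.2 ± 33.3 CPM in C201R/+ (45.2 to 136.3) and at 281.5 ± 76.9 in wild type (196.0 to 388.6), with no overlap (log2 change -1.47 ± 0.236, edgeR adjusted p = 0.0030). Calcb stood at 28.5 ± 6.8 CPM (at most 34.4) against 52.7 ± 8.43 (at least 43.0), again with no overlap (-0.88 ± 0.175, adjusted p = 0.012). Without Cre the log2 change of Calca was -2.12 ± 0.63 and was not called (edgeR adjusted p = 1.0). Adm, the gene of adrenomedullin itself, gave 85 counts over the mutant and 40 over the wild-type libraries that carried Cre. Calcrl and Ramp1, which bind CGRP together, were not called between genotypes.

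Of 9 tested other secreted factors known to respond to stress, 1 was higher, Vegfa, the vascular growth factor. It stood at 19.2 ± 3.38 CPM in C201R/+ and 9.16 ± 1.37 in wild type with Cre (log2 change 1.10 ± 0.175, edgeR adjusted p = 0.0029). Without Cre it stood at 20.9 ± 4.6 and 18.8 ± 4.02 CPM, and in wild type it was lower with Cre (-1.21 ± 0.21, edgeR adjusted p = 1.4e-04). Its interaction was not called (0.93 ± 0.285, edgeR adjusted p = 0.26). The median of the list of other secreted factors was -0.04 between genotypes with Cre. A list of ATF4 with its known partners and targets had 8 of 11 tested genes higher and 0 lower (median 1.58), where 2.29% of all genes were higher and 1.82% lower. Nupr1, a stress-induced chromatin protein, changed by 5.05 ± 0.285 (edgeR adjusted p = 8.9e-08), Atf5 by 2.92 ± 0.333 (1.6e-04), Atf4 by 1.66 ± 0.177 (9.4e-05) and Ddit3, also called CHOP, by 1.63 ± 0.247 (0.0020). Of 9 tested cholinergic and motor neuron markers 1 was lower in C201R/+ with Cre, the motor neuron gene Chodl (-1.02 ± 0.135, edgeR adjusted p = 6.3e-04). Among markers of other cell types Aldoc of astrocytes was higher (0.58 ± 0.15, edgeR adjusted p = 0.043), Dcn of fibroblasts lower (-1.04 ± 0.202, 0.010), and 0 of the tested endothelial, mural, oligodendrocyte, microglial, blood and sensory neuron markers were called. The 7 blood markers had a median log2 change of 1.08, with Hbb-bs at 1.23 ± 0.469 (edgeR adjusted p = 0.18) and Hba-a2 at 1.08 ± 0.447 (0.22), and their summed CPM was 23.8 to 496.9 in C201R/+ and 26.3 to 190.4 in wild type (medians 167.8 and 47.6). The part of these cell types in the hormone levels was not tested. In the interaction 3 of the 11 tested genes of the ATF4 list were called, Nupr1, Atf4 and Atf5, where 0.130% of all genes were. None of the hormone or receptor genes was called there in edgeR, while DESeq2 called Fgf21 and Adm2. The few wild-type counts of Fgf21, Adm2 and Gdf15 leave their interaction poorly measured, so nothing is read from this difference.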

How the data were processed

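Ribosome-associated RNA from HA pulldowns of spinal cord was sequenced in 24 libraries, 6 per group. The authors deposited expected counts, TPM and FPKM per gene, per the file headers, and the submitters' processing notes name RSEM 1.2.12 and Bowtie2 2.2.0. Build, annotation and use of strand are not given in the sources used here. The rounded expected counts entered edgeR's robust quasi-likelihood F test (edgeR 4.0.16 under R 4.3.3), using TMM factors, filterByExpr and a library series term, on the 12 libraries of each comparison or all 24 for the interaction. P-values were adjusted over all genes tested. SE is the log2 change divided by the root of F. Genes that did not pass the filter were tested by exact two-sided permutation of log2(CPM + 0.5) over 924 arrangements. Alternatives were RLE, library totals, DESeq2 1.42.0, no filter, no series term, a prefix block, subsets of libraries, other pseudocounts and the deposited FPKM. The fit was tested on simulated data. No 2 libraries of a group agreed within sampling noise, the lowest chi-square per gene being 22.15. Intervals cover counting error only. All 10 genes, Gars, Chat and Rpl22 are named by rule, and from each list up to 4 called genes with the smallest p, or else the 2 with the highest mean TPM. Adm, Gfral and the values of Chat by library were added after their values were seen. The genes, lists and alternatives were chosen with earlier results of these data known.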

Additional observations from a re-analysis of the deposited data

Results flagged for a closer look

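Within groups of 6 mice, 37 sets of CPM values were examined for a mouse set apart by a gap above Dixon's 95% critical value, and 9 were found. The rate of 1 in 20 by chance holds for normally distributed values in independent sets. These sets share mice, and several hold mostly zeros, so nothing is read from the number found. Wild-type mouse 14701-9 with Cre was the highest of its group for Gdf15 (0.762 CPM), Stc2 (5.14), Calcrl (3.81) and Ramp1 (10.6). The C201R/+ mouse 14003-2 without Cre was the highest of its group for Gdf15 (0.964 CPM), Stc2 (2.89) and Adm2 (1.93), but not for Fgf21 (0.161 CPM, a median of 0.335 in the group). C201R/+ mouse 14003-1 with Cre was the lowest of its group for Fgfr1 (23.3 CPM). C201R/+ mouse 14004-8 without Cre was the highest of its group for Ramp2 (8.03 CPM), a gene for which the comparison of Cre with no Cre in C201R/+ was called without it (log2 change 1.27, edgeR adjusted p = 0.037).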

How the results depend on the processing

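The calls of Fgf21 and Adm2 in C201R/+ against wild type with Cre, and of all 4 secreted factors in Cre against no Cre in C201R/+, held in all alternatives run. Between genotypes with Cre, 3 of the 10 genes were called, 5 in library series 2 only and 5 without mice 14003-1 and 14701-9 (Stc2 and Ramp2 added), 2 with a replicate block on the prefix of the mouse numbers (Gdf15 lost), and 3 to 4 when leaving out each mouse. DESeq2 gave Gdf15 and Calcrl no adjusted p there. In Cre against no Cre in wild type 4 were called, 2 with the block, and 3 to 4 when leaving out each mouse. In C201R/+ 6 were called, 5 with the block, and 5 to 7 when leaving out each mouse. In the interaction 0 were called, 2 in DESeq2 and 0 when leaving out each mouse. What the prefix marks is not given, and mouse numbers pair no samples.

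All genes called between genotypes with Cre numbered 601, 32 with library totals alone (24 higher, against 335 of 601), 75 with the block, 291 with no series term, 1344 in DESeq2, 1370 in series 2, 1950 without the 2 mice and 170 (without 14703-4) to 936 (without 14003-1) when leaving out each mouse. For the interaction 21 became 115 in DESeq2, 1 with library totals, 6 with the block, 43 without the 2 mice and 11 to 37 when leaving out each mouse. For Cre against no Cre 8637 genes were called in wild type, 6116 with the block and 7912 to 9378 when leaving out each mouse, and in C201R/+ 8145, 6120 and 7067 to 9323. Without Cre 0 became 6 with no filter, 2 in DESeq2 and 1 with the block.

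Signs turned for changes that were not called. Without Cre, between genotypes, Fgfr1 was at -0.01 with the block and -0.04 in series 2, Calcrl at 0.19 and 0.14, and Ramp2 at 0.11 in series 2 and 0.09 with library totals. When leaving out each mouse these ran from -0.04 to 0.26 for Fgfr1, -0.21 to 0.15 for Calcrl, -0.38 to 0.03 for Ramp1 and -0.57 to 0.13 for Ramp2. In the interaction Gdf15 was at -0.12 with no series term, Calcrl ran from -0.02 to 0.78 and Ramp2 from -0.80 to 0.03 when leaving out each mouse. For Cre against no Cre in C201R/+, Ramp1 was at 0.01 with library totals. The causes were not tested.

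Of genes that did not pass the filter, the log2 difference of Klb between genotypes with Cre ran from 0.155 to 0.384 (exact permutation p from 0.017 to 0.22) and that of Adm2 without Cre from 0.226 to 0.683 (p from 0.015 to 0.15) when leaving out each mouse. Pseudocounts of 0.1 and 1 changed no side of the threshold, and FPKM left the ratio of Fgf21 to Fgfr1 within its spread. The shorter motif TGATGNA was found in 3 of the 8 genes, Gdf15 added, and in 12.2% of windows. Depth limits Klb, Ramp3 and the traces of Fgf21, Adm2 and Gdf15 without Cre, which rest on 7 to 33 summed counts in mutant mice.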
